A study of Mus musculus with 14 samples.

Results

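The loci described here carry mouse genes for the linker histone H1 and for the core histones H3 and H4. They were chosen by name alone. A locus was taken if at least 1 of its comma-separated gene names began with Hist1 to Hist4 followed by h1, h3 or h4, and if none of its names was an H2A or H2B gene. This gave 24 of the 67811 loci in the files, with 3 H1 loci, 8 H3 loci, 12 H4 loci and 1 mixed locus that joins an H1 gene with H3 genes. Of these, 21 carry a single name. The other 3 are the mixed locus of Hist1h1d, Hist1h3d, Hist1h3f and Hist1h3g, the locus of Hist1h4i, Hist1h4k, Hist1h4n and Prss16, and the locus of Hist2h4 and the clone-named transcript RP24-201C14.10. Another 5 loci with an H1, H3 or H4 name were left out because they also carry an H2A or H2B name.

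RNA was measured in whole heads of C57BL/6J mouse embryos at E12.5. The groups were Zcchc8-/- heads (KO, 6 libraries), Zcchc8+/- heads (HET, 3 libraries) and Zcchc8+/+ heads (WT, 5 libraries). The labels give no treatment and do not say which part of Zcchc8 is altered. Nothing in them shows that libraries come from different embryos, and p-values then measure only the spread between these libraries, which may be technical. The libraries were stranded and made from polyadenylated RNA, and the values are FPKM, that is, fragment numbers scaled by transcript length and by the total of the library. Total depth is unknown. Depth relative to library WT1, read from the smallest FPKM steps, was 1.15 to 1.5 in KO, 1.23 to 1.32 in HET and 1 to 1.20 in WT libraries. Zcchc8 itself was at 15.5 ± 3.91 FPKM in KO (SD, n = 6), 25.7 ± 1.64 FPKM in HET (SD, n = 3) and 39.7 ± 2.32 FPKM in WT heads (SD, n = 5), as all means below are given, and no KO library reached the lowest HET or WT library. Markers of brain progenitors, brain regions, neurons, muscle, cartilage, lens and erythroid cells were detected in the libraries, as whole heads would hold, and no tested marker was at 0 in every library.

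Histones H3 and H4 form the centre of the nucleosome together with H2A and H2B, and H1 binds the linker DNA where it enters and leaves. Most of these genes are replication-dependent. They lie in clusters, have no intron, and are switched on in S phase, when new DNA is packed. Their messages are the best known exception to polyadenylation in animal cells. The pre-mRNA is cleaved just after a conserved stem-loop, which the stem-loop binding protein SLBP holds, and the mature message ends there without a poly(A) tail. ZCCHC8 holds together the nuclear exosome targeting complex (NEXT), which brings short or unprocessed transcripts in the nucleus to the RNA exosome, where they are degraded. Libraries selected for poly(A) thus show only the minor polyadenylated forms of most histone messages, and the values below describe that RNA, not all histone mRNA.

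The stem-loop could be read directly from the gene models. All 27 gene names carried by the member loci were matched to GENCODE M21 transcripts on GRCm38, and all of these transcripts had 1 exon. A stem of 6 Watson-Crick pairs that starts with GG, closes a loop of 4 bases and lies within 60 bases of the stop codon was found in 21 of the 27 genes, in 2 of 4 H1, 7 of 10 H3 and 12 of 13 H4 genes. The models of the other 6 end at most 48 bases past the stop codon. An H1, an H3 and 3 H4 genes are shown because the arm of the stem differs between H4 genes and the H1 and H3 genes. Hist1h4j has the rarer H4 arm and Hist4h4 the most distant stem-loop. Each is exonic, in the 3′ untranslated part, and is written 5′ to 3′ on the gene's strand as RNA-sense DNA. Capitals mark the stem and its loop.
Hist1h1d: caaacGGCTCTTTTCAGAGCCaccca
Hist1h3c: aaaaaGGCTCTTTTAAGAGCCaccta
Hist1h4i: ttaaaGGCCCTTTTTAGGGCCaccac
Hist1h4j: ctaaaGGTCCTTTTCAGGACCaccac
Hist4h4: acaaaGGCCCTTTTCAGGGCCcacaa
The genes lie at chr13:23553262-23560686 on the plus strand (Hist1h1d), chr13:23744973-23745602 on the minus strand (Hist1h3c), chr13:22040636-22041362 on the minus strand (Hist1h4i), chr13:21735064-21735837 on the plus strand (Hist1h4j) and chr6:136801553-136804415 on the minus strand (Hist4h4). All 9 H1 and H3 genes with a stem-loop had the arm GGCTCT. Among the H4 genes, 10 had GGCCCT and 2, Hist1h4b and Hist1h4j, had GGTCCT. The stem-loop began 24 to 54 bases past the stop codon, with a median of 31.

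The annotated models of 13 of these genes run more than 100 bases past the stem-loop. The model of Hist1h1d continues for 4884 bases, that of Hist4h4 for 2445 and that of Hist2h4 for 1257. Past the stem-loop, 7 genes hold at least 1 AATAAA, the common signal for polyadenylation. Hist1h1d has 7 of them, Hist4h4 has 3, and Hist2h4 and Hist1h4j have 2 each. Many transcripts of the H3 and H4 genes share long stretches with other genes. For each transcript, the share of its 50-base words found in transcripts of no other GENCODE gene was taken. Its median was 100% over the transcripts of H1 genes, 26.6% over those of H3 genes and 60.5% over those of H4 genes. It was down to 0.0% for Hist2h3c1, which has 2 transcripts. How the authors' counting divided fragments between near-identical copies, and whether it used the strand, is not stated in the labels or file headers, so levels of single H3 and H4 loci are uncertain.

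Stretches upstream of the start sites also differed by class. RefSeq promoters on GRCm38.p6 were matched for 25 of the 27 names, and the 250 bases before the start were searched on both strands for 4 short words: CCAAT (the CCAAT box), the TATA box word TATAAA, the word AAACACA known from H1 promoters, and GGTCC, a word known from H4 promoters. The 150 bases before the start are shown for 1 gene of each class, each at a locus that was higher in KO heads and with a window free of the gene's own annotated transcript. Capitals mark the motifs on either strand.
Hist1h1b: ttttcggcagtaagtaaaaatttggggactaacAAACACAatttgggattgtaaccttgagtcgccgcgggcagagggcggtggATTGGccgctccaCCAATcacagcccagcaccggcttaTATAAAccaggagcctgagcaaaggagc
Hist1h3i: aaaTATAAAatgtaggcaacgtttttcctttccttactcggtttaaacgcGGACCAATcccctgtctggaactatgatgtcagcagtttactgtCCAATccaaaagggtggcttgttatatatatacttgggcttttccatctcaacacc
Hist1h4i: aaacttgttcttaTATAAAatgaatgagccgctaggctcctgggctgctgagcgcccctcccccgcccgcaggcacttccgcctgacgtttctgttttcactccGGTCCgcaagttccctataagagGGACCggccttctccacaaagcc
These windows are chr13:21780626-21780775, chr13:21783398-21783547 and chr13:22041363-22041512, all read on the minus strand. In Hist1h3i the first GGACC and the first CCAAT share letters. CCAAT was present in 4 of 4 H1, 8 of 9 H3 and 3 of 12 H4 promoters, against 33.8% of all 32817 promoters. AAACACA was present in 3 of 4 H1 promoters and in none of the H3 or H4 promoters, against 6.25% of all. GGTCC within 60 bases of the start was present in 11 of 12 H4, 2 of 9 H3 and 0 of 4 H1 promoters, against 11.1% of all, and over the whole 250 bases it was in 39.8% of all promoters. TATAAA was present in 3 of 4 H1, 4 of 9 H3 and 6 of 12 H4 promoters, against 12.4% of all. It was counted anywhere in the 250 bases, so a match need not be a TATA box. Of the promoters shown, its offset from the start was -28 in Hist1h1b, -147 in Hist1h3i and -137 in Hist1h4i. In the other H4 promoters it was -16 in Hist1h4k, -32 in Hist1h4d, -127 in Hist1h4n, -128 in Hist1h4m and -250 in Hist1h4f. These matches describe the letters and do not show that a factor binds.

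KO heads held more polyadenylated RNA from H1, H3 and H4 genes than WT heads. A locus entered the test if it reached 0.5 FPKM in at least 3 libraries, which 21 of the 24 loci did. In KO against WT, 16 of these 21 were higher and 0 were lower (limma-trend over all 18217 tested loci, Benjamini-Hochberg adjusted p under 0.05), where 19.0% of all tested loci were higher and 5.61% were lower. All 21 log2 differences were positive and 18 had an unadjusted p under 0.05. Log2 differences here are between group means of log2(FPKM + 0.1). Their median over the 21 loci was 1.41, from 0.31 to 4.48, while the median over all tested loci was -0.00. By class, 2 of 2 tested H1 loci were higher (median 1.06), 5 of 7 H3 loci (median 1.38), 8 of 11 H4 loci (median 1.41) and the mixed locus (2.26). These H3 and H4 counts include loci that passed the filter through KO libraries alone, which are set apart below. In whole heads, more cells of a type and more RNA per cell cannot be told apart. Every KO library was above every WT library in 14 of the 21 loci, against 15.3% of all tested loci. The 14 include 1 of the Hist1h3e loci, Hist2h4 and Hist4h4, which passed the filter through KO libraries alone and so had to be high there. The share of all loci without such loci was not counted.

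**Figure D1:**
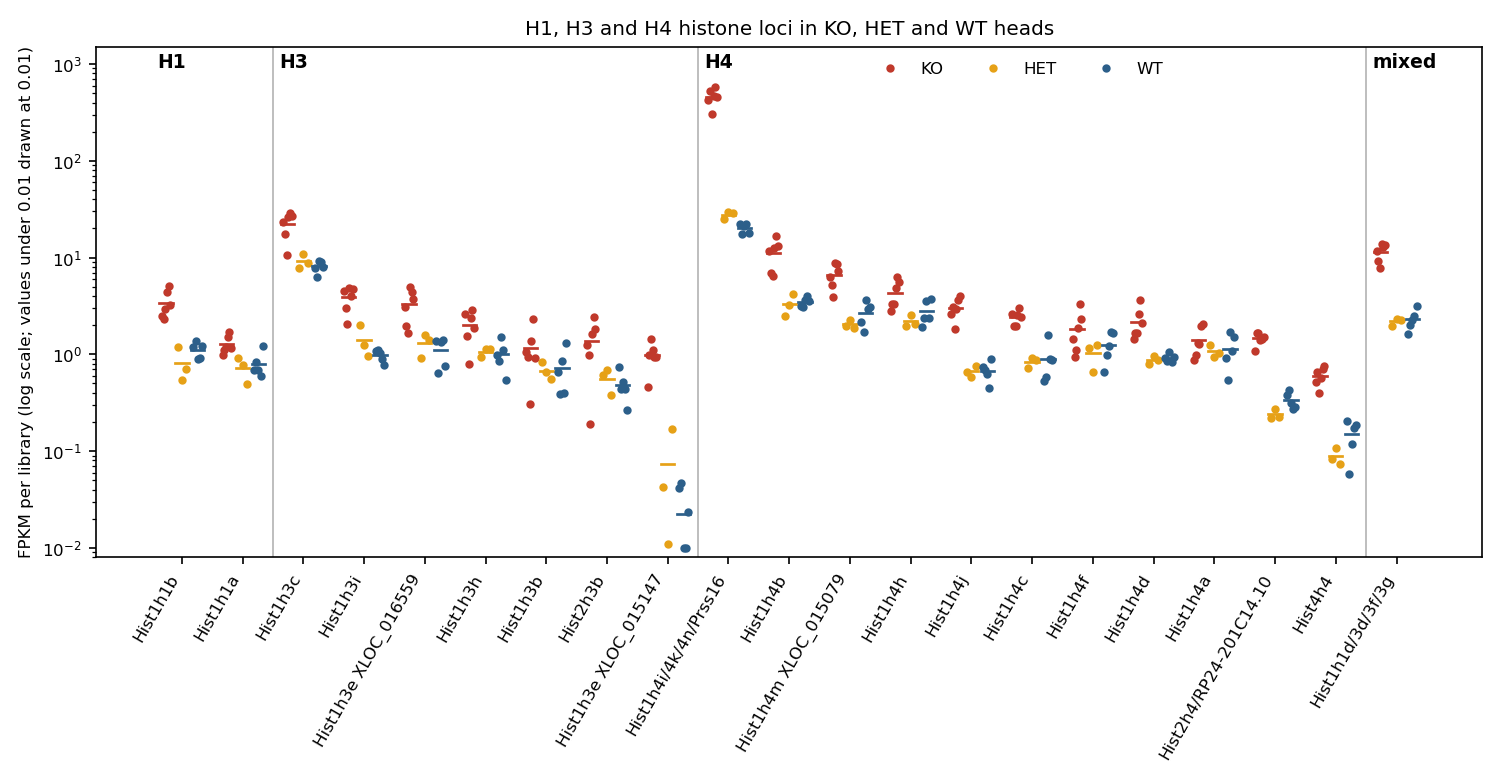
FPKM per library (log axis) of the 21 tested histone loci, grouped by class, in 6 KO, 3 HET and 5 WT libraries; points are libraries and dashes are group means. KO points lie above all WT points in 14 of the 21 loci, and the locus of Hist1h4i has the highest values of all. The 14 include 3 loci that passed the filter through KO libraries alone.

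The share of loci called higher in KO depended on abundance across the whole data set, so the counts were also set beside loci of like abundance. In quartiles of the mean FPKM, 6 of the 21 histone loci fell in the lowest quartile, 12 in the second, 2 in the third and 1 in the highest. Of all tested loci, 47.6%, 20.6%, 5.09% and 2.70% were higher in KO than WT in these quartiles. In the lowest quartile Hist1h1a, 1 of the Hist1h3e loci, Hist2h4 and Hist4h4 were called higher, and Hist1h3b and Hist2h3b were not. In the second quartile all but Hist1h4a, Hist1h4f and Hist1h4h were called higher, as were the histone loci of the 2 upper quartiles. 3 histone loci passed the filter through their KO libraries alone (1 of the Hist1h3e loci, Hist2h4 and Hist4h4) and so had to be high there. Of the 18 that passed it in HET or WT libraries as well, 13 were higher in KO with a median log2 difference of 1.32, against 8.08% of the 15177 loci that pass this way. By class, these were 2 of 2 H1 loci, 4 of 6 H3 loci (median 1.26), 6 of 9 H4 loci (median 1.26) and the mixed locus.

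**Figure D2:**
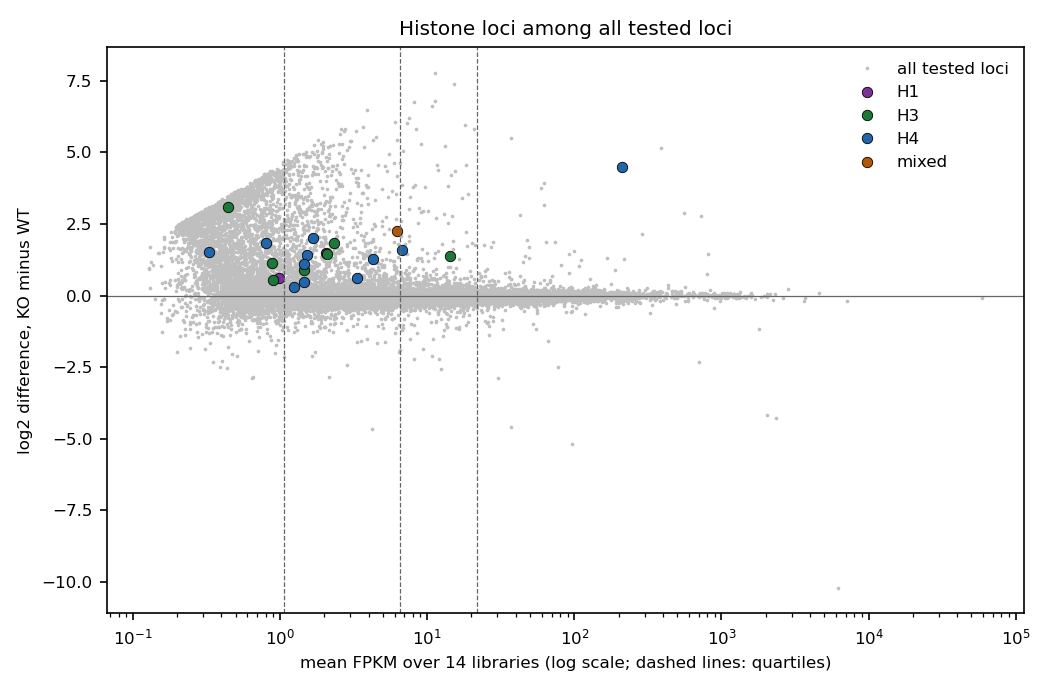
Log2 difference KO minus WT (vertical axis) against the mean FPKM over 14 libraries (log axis) for all 18217 tested loci in grey and the 21 histone loci in colour by class; dashed lines are the quartile limits. The histone loci lie between 0.31 and 4.48 on the vertical axis, and 18 of them are in the 2 lower quartiles.

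Both tested H1 loci were higher in KO, and 1 of them stood clear of the other groups. Hist1h1b, which encodes a replication-dependent linker histone (chr13:21779883-21780625, minus strand), ranged from 2.30 to 5.09 FPKM in KO libraries with a median of 3.12. Its HET libraries were at 0.541, 0.70 and 1.20 FPKM, and its WT libraries at 0.900, 0.908, 1.19, 1.23 and 1.37. All KO libraries were thus above all others, and the HET range reached below and into the WT range. The mean was 3.42 ± 1.10 in KO and 1.12 ± 0.209 in WT heads, a log2 difference of 1.49 (SE 0.22, limma-trend adjusted p = 7.06e-05). Hist1h1a, another linker histone gene (chr13:23763666-23764406, plus strand), ranged from 0.993 to 1.69 FPKM in KO libraries with a median of 1.17. It was at 0.491, 0.767 and 0.925 in HET and 0.591, 0.687, 0.697, 0.827 and 1.21 in WT libraries. The highest WT library overlapped the KO range, and only 2 of 6 KO libraries were above it. Its log2 difference was 0.63 (SE 0.19, limma-trend adjusted p = 0.0254). This call depended on single libraries and settings: it was lost without KO4, KO5, WT1, WT3 or WT4, with log2 differences from 0.54 to 0.59, and also with no filter, in the authors' matrix and after quantile normalization, where the log2 difference was 0.0018, among other settings. Hist1h1t, the linker histone gene of testis germ cells, stayed under the filter at 0.105 ± 0.0314 FPKM in KO, 0.0354 ± 0.0248 in HET and 0.0440 ± 0.0282 in WT heads and was not tested.

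Of the H3 genes, Hist1h3c stood highest in FPKM in every group. Its KO libraries ranged from 10.7 to 28.6 FPKM with a median of 24.6, its HET libraries were at 7.83, 8.69 and 10.9, and its WT libraries at 6.37, 7.87, 7.96, 9.07 and 9.30. The lowest KO library was above all WT libraries but below 1 HET library. The means were 22.2 ± 6.87 in KO and 8.11 ± 1.17 in WT heads, a log2 difference of 1.38 (SE 0.22, limma-trend adjusted p = 1.72e-04). Hist1h3i (chr13:21782960-21783370, minus strand) ranged from 2.08 to 4.83 FPKM in KO libraries with a median of 4.29. It was at 0.954, 1.25 and 2.0 in HET and at 0.768, 0.895, 1.03, 1.09 and 1.12 in WT libraries. KO libraries did not overlap with the others, and the log2 difference was 1.83 (SE 0.22, limma-trend adjusted p = 7.32e-06). Hist1h3h (chr13:21717659-21718069, plus strand) ranged from 0.803 to 2.90 FPKM in KO libraries with a median of 2.12, and was at 0.941, 1.13 and 1.14 in HET and 0.542, 0.858, 0.995, 1.11 and 1.5 in WT libraries. 5 of 6 KO libraries were above the highest WT library. Its log2 difference of 0.90 (SE 0.28, limma-trend adjusted p = 0.0287) was the other call that rested on single libraries, and it was lost without KO1, KO4, KO5, WT2 or WT5, with log2 differences from 0.73 to 0.87, and also with no filter, sex as a term or quantile normalization, among other settings.

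Hist1h3e is the name of 2 loci. One of them, XLOC_016559, has an identifier in the block of loci that follows the gene's own minus strand (chr13:23561534-23562369). It ranged from 1.67 to 5.00 FPKM in KO libraries with a median of 3.4, and was at 0.927, 1.40 and 1.59 in HET and at 0.646, 0.761, 1.34, 1.39 and 1.39 in WT libraries. All KO libraries were above the others, with a log2 difference of 1.45 (SE 0.29, limma-trend adjusted p = 1.14e-03). The other, XLOC_015147, has an identifier among loci of plus-strand genes. On this chromosome the order of identifiers separates loci by the strand of their GENCODE gene for 96.9% of 451 loci, although the files give no strand. It was at 0.460 to 1.43 FPKM in KO libraries with a median of 0.963, at 0.0110, 0.0423 and 0.168 in HET, and at 0, 0, 0.0236, 0.0417 and 0.0473 in WT libraries. This locus was close to silent outside KO and had the largest log2 difference of the H3 loci, 3.10 (SE 0.28, limma-trend adjusted p = 3.10e-07). It passed the filter through KO libraries alone.

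2 tested H3 loci were not called. Hist1h3b (chr13:23752267-23752886, plus strand) ranged from 0.308 to 2.31 FPKM in KO libraries with a median of 0.999, and was at 0.552, 0.657 and 0.824 in HET and at 0.391, 0.403, 0.657, 0.855 and 1.29 in WT libraries. The groups overlapped, with a log2 difference of 0.54 (SE 0.38, limma-trend adjusted p = 0.348), which was -0.24 after quantile normalization. Hist2h3b, an H3 gene of the smaller cluster on chromosome 3 (chr3:96268654-96269141, plus strand), ranged from 0.192 to 2.42 FPKM in KO libraries with a median of 1.44. It was at 0.383, 0.612 and 0.684 in HET and at 0.263, 0.435, 0.443, 0.522 and 0.734 in WT libraries. Here 5 of 6 KO libraries were above every HET and WT library, and KO3 was below all of them. The log2 difference was 1.15 (SE 0.43, limma-trend adjusted p = 0.0709), and without KO3 it was 1.56 (limma-trend adjusted p = 0.000233). It also passed with pseudocounts of 0.5 and 1 and with library weights. The locus named Hist2h3c1 alone was at 0 in all libraries, and its identifier lies in the block of the other strand.

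H4 genes gave both the largest and the smallest differences. The locus of Hist1h4i, Hist1h4k, Hist1h4n and Prss16, a peptidase gene of the thymus, ranged from 302 to 584 FPKM in KO libraries with a median of 462. It was at 25.2, 28.9 and 29.5 in HET and at 17.4, 18.0, 21.4, 22.0 and 22.1 in WT libraries. The 3 groups were fully apart, with every KO library above every HET library and every HET library above every WT library. The means were 460.0 ± 95.1 FPKM in KO, 27.8 ± 2.30 in HET and 20.2 ± 2.27 in WT heads. KO was 22.8 times WT in mean FPKM, with a log2 difference of 4.48 (SE 0.13, limma-trend adjusted p = 5.99e-12). FPKM of this locus alone made up most of the summed FPKM of all histone loci in KO heads. That sum was 546.3 ± 113 in KO, 58.2 ± 4.03 in HET and 51.3 ± 5.43 in WT heads. Over loci with a single name it was 73.4 ± 21.4 in KO, 27.9 ± 1.71 in HET and 28.4 ± 4.06 in WT heads. Which of the 4 genes, or which stretch between them, the fragments of the locus came from cannot be told apart in these values.

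The next H4 loci by level rose by less. Hist1h4b (chr13:23757013-23757409, plus strand) ranged from 6.40 to 16.6 FPKM in KO libraries with a median of 12.1. It was at 2.49, 3.27 and 4.18 in HET and at 3.07, 3.19, 3.58, 3.67 and 4.02 in WT libraries. KO libraries were above all others, with a log2 difference of 1.58 (SE 0.22, limma-trend adjusted p = 3.91e-05). Hist1h4m (chr13:21811746-21812147, plus strand) ranged from 3.88 to 8.73 FPKM in KO libraries with a median of 6.77, and was at 1.88, 1.98 and 2.28 in HET and at 1.69, 2.17, 2.95, 3.08 and 3.60 in WT libraries. The lowest KO library was just above the highest WT library, and the log2 difference was 1.26 (SE 0.22, limma-trend adjusted p = 2.88e-04). A further locus of the name Hist1h4m, with an identifier in the block of the other strand, was at 0 in all KO libraries and at or near 0 in HET and WT libraries. Hist1h4j, one of the H4 genes with the GGTCCT stem, ranged from 1.83 to 4.0 FPKM in KO libraries with a median of 3.01. It was at 0.588, 0.661 and 0.759 in HET and at 0.448, 0.619, 0.684, 0.740 and 0.893 in WT libraries. HET and WT overlapped while KO stood apart, with a log2 difference of 1.99 (SE 0.19, limma-trend adjusted p = 4.73e-07).

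Hist2h4, the H4 gene of the chromosome 3 cluster (chr3:96261682-96263311, minus strand), shares its locus with a clone-named transcript. It ranged from 1.08 to 1.67 FPKM in KO libraries with a median of 1.47, and was at 0.221, 0.226 and 0.272 in HET and at 0.273, 0.284, 0.317, 0.381 and 0.430 in WT libraries. KO libraries were above and HET libraries just below all WT libraries. KO differed from WT by 1.84 on the log2 scale (SE 0.14, limma-trend adjusted p = 5.38e-08). This locus passed the filter through KO libraries alone and so had to be high there. Hist1h4c was at 2.41 ± 0.410 FPKM in KO, 0.837 ± 0.107 in HET and 0.898 ± 0.424 in WT heads. Hist1h4d was at 2.18 ± 0.822 FPKM in KO, 0.874 ± 0.0756 in HET and 0.918 ± 0.0873 in WT heads. Both were called, with KO minus WT log2 differences of 1.41 for Hist1h4c and 1.10 for Hist1h4d. Hist4h4, the single H4 gene outside the main clusters, was at 0.601 ± 0.131 FPKM in KO, 0.0881 ± 0.0177 in HET and 0.149 ± 0.0597 in WT heads. It also passed the filter through KO libraries alone, and all its KO libraries were above all WT libraries. Its log2 difference of 1.51 (SE 0.21, limma-trend adjusted p = 3.80e-05) was -0.06 after quantile normalization of the libraries, so its direction depended on the scaling.

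3 tested H4 loci were not called in KO against WT. Hist1h4h (chr13:23531050-23531519, plus strand) ranged from 2.79 to 6.30 FPKM in KO libraries with a median of 4.08, and was at 1.99, 2.04 and 2.54 in HET and at 1.92, 2.36, 2.39, 3.56 and 3.76 in WT libraries. Only 3 of 6 KO libraries were above the highest WT library, and the log2 difference was 0.60 (SE 0.22, limma-trend adjusted p = 0.0595). It passed the threshold without KO1, KO2, KO3, WT3 or WT5, in the authors' matrix (log2 difference 0.99) and with library weights (0.76). Hist1h4f (chr13:23551258-23551648, minus strand) ranged from 0.931 to 3.34 FPKM in KO libraries with a median of 1.66, and was at 0.664, 1.16 and 1.25 in HET and at 0.657, 0.992, 1.21, 1.65 and 1.69 in WT libraries. KO and WT overlapped, with a log2 difference of 0.48 (SE 0.31, limma-trend adjusted p = 0.299). Hist1h4a (chr13:23760692-23761230, minus strand) ranged from 0.875 to 2.05 FPKM in KO libraries with a median of 1.3. It was at 0.938, 1.03 and 1.26 in HET and at 0.538, 0.906, 1.08, 1.5 and 1.70 in WT libraries. Its difference was the smallest of the 21 tested histone loci, 0.31 (SE 0.27, limma-trend adjusted p = 0.465), and it was -0.25 after quantile normalization.

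The mixed locus joins the linker gene Hist1h1d, whose annotated model is the longest of all members, with the core genes Hist1h3d, Hist1h3f and Hist1h3g. It ranged from 7.74 to 13.9 FPKM in KO libraries with a median of 12.3, and was at 1.99, 2.28 and 2.34 in HET and at 1.62, 2.03, 2.29, 2.47 and 3.16 in WT libraries. KO libraries were at least 7.74 and no HET or WT library was above 3.16. Its log2 difference was 2.26 (SE 0.17, limma-trend adjusted p = 3.71e-08).

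Single-name loci whose identifier block matches the gene's strand were also described by the length of their gene model. Left out was Hist4h4, which passed the filter through KO libraries alone. Of 4 whose GENCODE model runs more than 200 bases past the stop codon, 4 were higher in KO than WT, with log2 differences from 1.10 to 1.99 and a median of 1.43. Of 12 with 200 bases or fewer, 7 were higher, with log2 differences from 0.31 to 1.83 and a median of 1.03. Both counts stand beside the 8.08% of all loci of that filter. The ranges overlapped, the limit of 200 bases was chosen after the values were seen, and the difference was not tested.

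**Figure D3:**
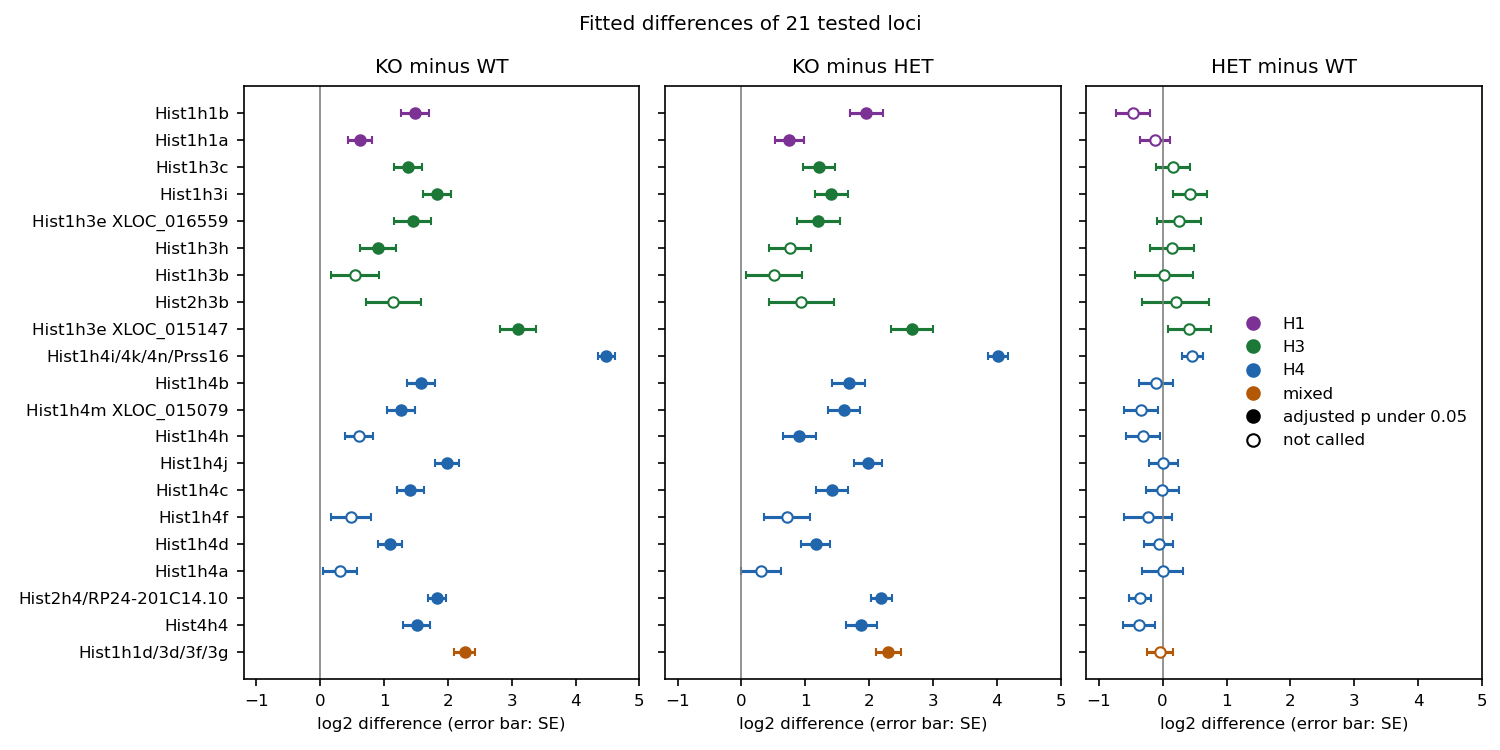
Fitted log2 differences of the 21 tested histone loci for KO minus WT, KO minus HET and HET minus WT, with the SE as error bar; filled points have an adjusted p under 0.05. All points lie right of 0 in KO minus WT and in KO minus HET, and none is filled in HET minus WT.

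HET heads were tested against WT heads to see whether a single altered allele moved these genes. None was called, with 0 of 21 higher and 0 lower in limma-trend, where 0.00549% of all tested loci, 1 locus, were higher and 0 were lower. 1 histone locus and 354 of all loci had an unadjusted p under 0.05. The median log2 difference over the histone loci was -0.00, with a range from -0.47 to 0.47. The 2 H1 loci were both negative, with Hist1h1b at -0.47 (SE 0.27). All 7 H3 loci were positive, at most 0.42, and 2 of 11 H4 loci were positive. The locus of Hist1h4i had the smallest p. It averaged 27.8 FPKM in HET and 20.2 in WT heads, a log2 difference of 0.47 (SE 0.16, limma-trend adjusted p = 1), and all HET libraries were above all WT libraries, which held for 1.05% of all tested loci. At Hist2h4 all HET libraries were below all WT libraries, which held for 1.43% of all tested loci, with a log2 difference of -0.35 (SE 0.17). With 3 HET libraries, SEs of the histone loci reached 0.52. Zcchc8 itself was not called in this comparison, with a log2 difference of -0.62 (SE 0.18) and all HET libraries below all WT libraries. Small and moderate shifts of histone loci could thus have gone uncalled.

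KO heads also held more of this RNA than HET heads. In KO against HET, 16 of 21 loci were higher and 0 lower, where 17.9% of all tested loci were higher and 4.36% lower. These were 2 of 2 H1, 4 of 7 H3, 9 of 11 H4 loci and the mixed locus, and the median log2 difference was 1.41. Of the 18 loci that did not pass the filter through KO libraries alone, 13 were higher, with a median of 1.21, against 7.47% of all loci that pass this way. By class, these were 2 of 2 H1, 3 of 6 H3 and 7 of 9 H4 loci and the mixed locus. Every KO library was above every HET library in 15 of 21 loci, against 17.7% of all tested loci. The 15 include the 3 loci that passed the filter through KO libraries alone, and this count was not repeated without them. Hist1h4h, not called against WT, was called against HET with a log2 difference of 0.91 (SE 0.26, limma-trend adjusted p = 0.0173), at 4.35 ± 1.41 FPKM in KO and 2.19 ± 0.306 in HET heads. Hist1h3h, called against WT, was not called against HET (log2 difference 0.76, SE 0.33, limma-trend adjusted p = 0.126). KO against HET and KO against WT share the KO libraries. The calls against HET of Hist1h4h (log2 difference 0.84 and 0.86) and Hist1h1a (0.53 to 0.80) were lost when single libraries were left out, HET3 or HET5 for Hist1h4h and HET4, HET5 or KO4 for Hist1h1a. That of Hist1h3e at XLOC_016559 was lost without HET3 (0.99). After quantile normalization, Hist1h1a (0.07), Hist4h4 (0.20) and Hist1h3e at XLOC_016559 (0.85) were not called against HET, and Hist1h1a was not called with no filter or in the authors' matrix either. Calls against HET were gained without KO3 by Hist1h3h (0.99) and Hist2h3b (1.36), and with library weights by these and Hist1h4f (0.87).

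KO libraries differed among themselves in how far histone loci were raised. The median log2 difference from the WT mean over the 21 loci was lowest in KO3 (0.81) and KO2 (0.98), then 1.35 in KO1, 1.68 in KO4 and 1.71 in KO6, and highest in KO5 (1.82). It was between -0.03 and -0.02 in the HET libraries and between -0.17 and 0.09 in the WT libraries. The histone loci above the highest WT library numbered 21 in KO5, 20 in KO4, 19 in KO6, 16 in KO1 and KO2 and 14 in KO3. The share of all tested loci above the highest WT library was not counted for each KO library. Whether this order is particular to histone loci is thus unknown. Of all loci, those of at least 0.1 FPKM were most in KO6 (25272) and KO5 (25252) and fewest of the KO libraries in KO1 (22666). KO3 was the lowest KO library in 13 of the 21 loci and KO5 the highest in 12. The class medians varied most in H3, from 0.40 in KO3 to 1.94 in KO5, against 0.71 to 1.57 in H1 and 0.86 to 1.73 in H4. KO3 was not low throughout. It was the highest KO library at Hist2h4 and at the Hist1h3e locus of the other identifier block, with 1.67 and 1.43 FPKM. Without KO3, 18 of 21 loci were higher in KO than WT. Over the fits that left out 1 library in turn, 3232 to 3620 of all 18217 loci were higher. KO2 and KO3 read as male from Xist and Y-linked RNA, as did HET3, WT1, WT3 and WT4. With sex as a term in the fit, 15 of 21 loci were higher, and the share of all loci in this fit is not given here. Both counts include the 3 loci that passed the filter through KO libraries alone. Relative depth was also lower in KO1 (1.15), KO2 (1.18) and KO3 (1.27) than in KO5 (1.36), KO6 (1.41) and KO4 (1.5), and the part of depth in this order was not tested.

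**Figure D4:**
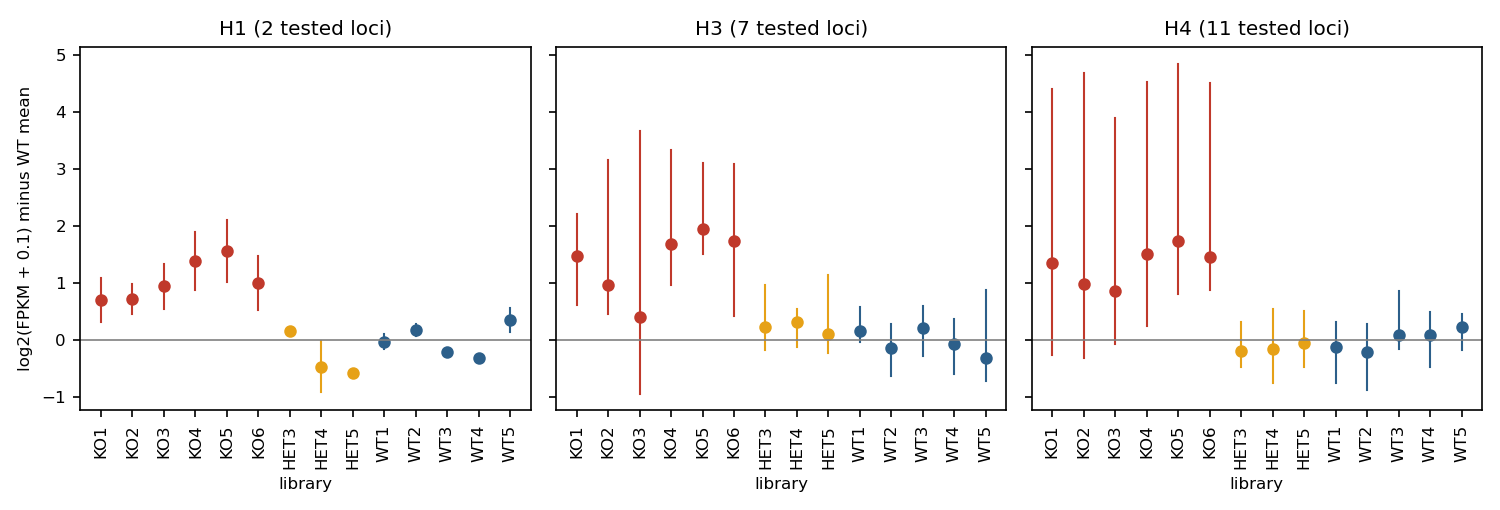
Log2(FPKM + 0.1) minus the WT mean in each of the 14 libraries, for the tested H1, H3 and H4 loci; points are medians over the loci of the class and lines run from the lowest to the highest locus. KO3 has the lowest H3 median of the KO libraries, 0.40, and KO5 the highest, 1.94.

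Of the replication-independent H1 and H3 genes, 1 of 6 tested was higher in KO than WT and 0 were lower, with a median log2 difference of 0.16. Over all tested loci, 19.0% were higher and 5.61% lower. In the highest quartile of mean FPKM, which held 5 of the 6, 2.70% were higher. The replication-independent genes make messages with an ordinary poly(A) tail. They include H1f0 and H1fx for linker histones, H3f3a and H3f3b for the H3 replacement variant, and Cenpa for the centromere variant, and 7 of 8 names in the list were found. The locus of H1f0 was the one called, at 244.7 ± 15.2 FPKM in KO and 211.5 ± 4.81 in WT heads (log2 difference 0.21, SE 0.05, limma-trend adjusted p = 0.00251). This locus also holds Galr3, Gcat and a clone-named transcript. Cenpa was at 93.8 ± 8.98 FPKM in KO and 86.1 ± 3.50 in WT heads, with a log2 difference of 0.12 that was not called. H1fx was at 144.2 ± 38.1 FPKM in KO and 121.2 ± 17.1 in WT heads, also not called. Its KO libraries were again lowest in KO3, at 80.7 FPKM, and highest in KO5, at 191.8, a pattern singled out after its values were seen.

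Of 22 tested genes that transcribe or process histone messages, 2 were higher and 0 lower in KO than WT, and the median log2 difference was 0.04. Of the 22, 14 were in the highest quartile of mean FPKM and 7 in the third. In these quartiles, 2.70% and 5.09% of all tested loci were higher. Srrt, which encodes the cap-associated protein ARS2, was at 142.9 ± 9.05 FPKM in KO and 115.7 ± 9.26 in WT heads (log2 difference 0.31, limma-trend adjusted p = 0.00132). Zfp473, a zinc finger protein of the histone pre-mRNA processing machinery, was at 1.22 ± 0.146 FPKM in KO and 0.957 ± 0.0905 in WT heads (log2 difference 0.32, limma-trend adjusted p = 0.037). Of 16 tested genes of the exosome and its targeting complexes, 0 were higher and 1, Zcchc8, was lower. Over all tested loci, 19.0% were higher and 5.61% lower.

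Markers of S phase and the cell cycle were counted because histone genes are read in S phase. Of 27 tested, 4 were higher in KO than WT and 0 lower, with a median log2 difference of 0.09. Of the 27, 21 were in the highest quartile of mean FPKM, these 4 among them, where 2.70% of all tested loci were higher. The 4, with their log2 differences, were Mki67 (0.21), the locus of Top2a (0.20), Rrm2 (0.18) and the locus of Ccnb1 (0.14), and their part in the histone result was not tested. The summed FPKM of all 27 was 2142 to 2401 in KO, 2092 to 2227 in HET and 2102 to 2333 in WT libraries, so the groups overlapped. Among KO libraries this sum was lowest in KO5 and highest in KO4, and its relation to the histone levels was not tested. The locus of Akr1a1 and Nasp alone averaged 493.4 FPKM in KO and 492.7 in WT heads. Markers of other cell types were counted too. In KO against WT, 19.0% of all tested loci were higher and 5.61% lower. Of the markers, 2 of 3 for lens, 1 of 4 for muscle and 1 of 4 for cartilage were lower. Higher were 1 of 6 brain progenitor, 1 of 5 brain region and 1 of 5 erythroid markers, which is near the share of all loci. Among neuron markers, 0 of 5 were called. The summed lens markers were at 23.4 to 111.1 FPKM in KO, 87.3 to 137.4 in HET and 78.6 to 106.5 in WT libraries. Muscle markers summed to 8.33 to 56.2 FPKM in KO, 45.1 to 58.6 in HET and 35.9 to 67.6 in WT libraries. Cartilage markers summed to 112.0 to 196.2 FPKM in KO, 147.7 to 163.4 in HET and 146.7 to 199.1 in WT libraries. Progenitor markers summed to 595.6 to 723.8 FPKM in KO, 610.2 to 628.2 in HET and 577.8 to 669.6 in WT libraries. The part of these marker differences in the histone result was not tested.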

How the data were processed

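Polyadenylated RNA of whole embryonic heads was profiled in 14 libraries. Per the submitters' processing notes, bcl2fastq, FastQC 0.10.0, TopHat2 2.1.0, Partek and Cuffdiff were used, with the build mm10. Gene models, filters and the strand setting are not stated in the sources at hand. Per library, the authors deposited FPKM values for 67811 loci. A locus can span several genes and share its coordinate range with others, so gene coordinates come from GENCODE M21 (GRCm38). A matrix of log2-transformed FPKM, recorded as quantile normalized, was deposited by the authors for the whole series. It is blank where the FPKM is 0 and served as an alternative only. The files hold no counts, so total depth is unknown and no counting error can be given. Relative depth came from the smallest steps between FPKM values (loci under 0.3 FPKM, log2 bins of 0.02).

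The 18217 loci that reached 0.5 FPKM in 3 or more libraries were tested. Differences were fitted as log2(FPKM + 0.1) with limma-trend (limma 3.58.1, R 4.3.3, robust moderation) with all 14 libraries in the same fit, 1 mean for each genotype and no other term. Adjustment (Benjamini-Hochberg) ran over all tested loci, and the threshold was 0.05. The pseudocount understates the change of low loci. No p-value was computed over the histone loci as a list. Tables, sequences and figures were made with Python 3.11.15, pandas 2.3.3, numpy 2.4.6, scipy 1.17.1 and matplotlib 3.10.9, and the fit was tested on simulated data.

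The members and lists were chosen with earlier results of these data known. Described in full are, in each class, the 4 loci with the highest mean FPKM, the 3 with the largest absolute log2 difference between KO and WT, and loci not called where a class has at most 3. Of each comparator list, genes are named by the smallest p. Alternatives were pseudocounts of 0.5 and 1, no filter, a stricter filter of 1 FPKM in 5 libraries, a common median, quantile normalization, the authors' matrix, fits of the compared groups only, the replicate number as a block, library weights, single-name loci and leaving out each library. Sex as a term was added after seeing the data. The replicate numbers did not pair the samples: correlations of deviations between libraries of the same number ran from -0.11 to 0.10.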

Additional observations from a re-analysis of the deposited data

How the results depend on the processing

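The count of histone loci higher in KO than WT was 16 and stayed between 13 and 18 over all alternatives. That in KO against HET was 16 and stayed between 13 and 19. Meanwhile 1844 to 7367 of all loci were higher in KO than WT and 1772 to 4921 in KO than HET, so the share beside these counts changed widely. The number of histone loci tested also differed with single-name loci only, no filter or the stricter filter. The counts of lower loci, and both counts in HET against WT, were 0 throughout. Leaving out 1 library gave 14 to 18 higher in either comparison. With the replicate number as a block, 14 histone loci were higher in KO than WT (without Hist1h1a and Hist1h3h) and 15 in KO than HET (without Hist1h1a), the median HET minus WT difference was -0.20, 645 of all loci were lower in KO than WT, 409 lower in KO than HET and 0 higher in HET than WT. The same-numbered libraries were no more alike than others. Quantile normalization reversed the differences of Hist1h3b (-0.24), Hist1h4a (-0.25) and Hist4h4 (-0.064) in KO minus WT and of Hist1h3b (-0.30) and Hist1h4a (-0.28) in KO minus HET, and gave medians over the histone loci of 1.08 and 0.94. It also gave 3801 lower loci in KO than WT among all loci, 2092 higher and 3256 lower in KO than HET, and 2 higher in HET than WT. The share of higher calls among all KO against WT calls was 77.2% in the FPKM as deposited. It was 73.2% when libraries shared 1 median and 38.1% when they were quantile normalized here. In the authors' matrix, which is also recorded as quantile normalized and is blank where the FPKM is 0, it was 96.4%. The cause of this gap was not tested. In that matrix all loci had a median KO minus WT difference of 0.21, and the histone loci had a median HET minus WT difference of 0.10. It gave 7367 higher and 276 lower loci in KO than WT, 4921 and 211 in KO than HET, and 0 and 1 in HET than WT. A pseudocount of 1 gave medians of 0.88 (KO minus WT) and 0.87 (KO minus HET), as its construction shrinks low loci, and pseudocounts of 0.5 and 1 left 0 loci higher in HET than WT. The stricter filter, which tests fewer loci, gave 1844 higher in KO than WT, 1772 in KO than HET and 0 in HET than WT, and no filter gave 2 higher in HET than WT. Fits of the compared groups only gave 451 lower in KO than HET, and 2 higher and 1 lower in HET than WT. Library weights gave 1632 lower in KO than WT, 1842 lower in KO than HET and 2 higher in HET than WT. With sex as a term, the histone median in HET minus WT was -0.10. Without 1 library in turn, all loci lower in KO than WT numbered 675 to 1247, lower in KO than HET 267 to 932, higher in HET than WT 0 to 2 and lower in HET than WT 0 to 1, and the histone median in HET minus WT was -0.10 to 0.0293. For values whose cause is not given by the construction of the alternative, the cause was not tested. Depth limits what can be said of loci under the filter, and HET has 3 libraries only.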

Other observations

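The 5 loci left out for an H2A or H2B name hold further H1 and H3 genes. The locus of Hist1h1c, Hist1h1d and Hist1h2bb was at 12.8 ± 2.46 FPKM in KO, 7.40 ± 0.309 in HET and 7.75 ± 0.319 in WT heads (log2 difference KO minus WT 0.70, limma-trend adjusted p = 1.76e-04). The locus of Hist1h1e and Hist1h2be was at 4.25 ± 0.618 FPKM in KO, 1.07 ± 0.0667 in HET and 1.33 ± 0.192 in WT heads (log2 difference 1.60, limma-trend adjusted p = 1.93e-08). The locus of Hist2h2aa2 and Hist2h3c1 was at 3.26 ± 0.481 FPKM in KO, 0.881 ± 0.201 in HET and 0.715 ± 0.135 in WT heads (log2 difference 2.05, limma-trend adjusted p = 1.53e-08). That of Bola1, Hist2h2ac and Hist2h3c2 was at 28.9 ± 5.95 FPKM in KO and 19.9 ± 1.98 in WT heads (log2 difference 0.51, limma-trend adjusted p = 0.00664). The locus of Hfe, Hist1h2bh and Hist1h3a was not called (log2 difference 0.88, limma-trend adjusted p = 0.0793). In each of them, fragments of the H1 or H3 gene cannot be told apart from those of its neighbour.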
